A study of Homo sapiens with 80 samples.

Results

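The actin cytoskeleton of T cells was followed in 10 genes through every condition of the study. The genes, listed by symbol, were ACTB, ACTG1, CFL1, PFN1, TMSB10, CORO1A, MYH9, MYL6, FLNA and TLN1. Each symbol matched 1 record, so 10 of the 60663 genes with a usable record were described, and the rule itself uses no measured value. The study asked how fast the transcriptome of Jurkat T cells, an immortalised human leukaemia T cell line (clone E6-1), responds to increased gravity. RNA of the whole cell, freed of ribosomal RNA, was sequenced with strand information from 80 libraries, of which 79 were used here. In the 9 g experiment, a pipette centrifuge held the cells at 9 g, and groups are named by the time spent there: hypg20s and hypg75s for 20 and 75 s, and hypg3, hypg5, hypg7, hypg9, hypg15 and hypg60 for 3, 5, 7, 9, 15 and 60 min. Their controls stayed at 1 g in the pipette, Ctrl over 15 min for all groups up to hypg15 and Ctrl60 over 60 min for hypg60, with 6 libraries a group and 5 of hypg15 used. The columns of Ctrl60 in the count table are named as control plus HEPES, a buffer, while those of hypg60 and the other 9 g groups are not, so that a buffer added to Ctrl60 alone cannot be told apart from the effect of 9 g in hypg60 or of time in Ctrl60. In the second experiment, cells were spun at 300 g for 5 min and then left for 1 min (wait1min), 4 min (wait4min) or 15 min (wait15min). Other cells were heated to 42 °C for 5 min (heat), and Ctrl300g was left untreated, with 4 libraries a group. Ctrl300g was fixed directly, so the time taken by spin, wait or heating cannot be told apart from the treatment. All groups were of 1 cell clone, and nothing in the labels says that libraries of a group came from separate cultures, so that p-values measure the spread between these libraries, which may be technical. The libraries of hypg3 and hypg15 carry numbers from 69 to 80 and those of all other 9 g groups, Ctrl included, numbers from 1 to 48, so that number range and these 2 time points cannot be told apart.

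Actin exists as monomers (G-actin) and as filaments (F-actin), and cells change shape by shifting actin between them. Profilin and thymosin beta bind monomers, cofilin severs filaments, coronin acts on filaments and on the Arp2/3 complex, non-muscle myosin II pulls on filaments, filamin crosslinks them and talin ties them to integrins. In T cells these proteins build the contact with an antigen-presenting cell, and free G-actin holds back the coactivators of serum response factor (SRF), which binds a DNA element called the CArG box in front of many actin genes.

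The 2 cytoplasmic actins are near-identical as proteins, and their coding sequences show how far reads of the 2 genes can be told apart. Their first 60 coding bases, from GENCODE 29, are shown with the 10 bases that differ between the 2 genes in capitals. Both stretches lie in a coding exon on the minus strand of GRCh38, at chr7:5529598-5529657 for ACTB and chr17:81512295-81512354 for ACTG1.
ACTB: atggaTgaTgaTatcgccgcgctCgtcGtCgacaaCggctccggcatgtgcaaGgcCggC
ACTG1: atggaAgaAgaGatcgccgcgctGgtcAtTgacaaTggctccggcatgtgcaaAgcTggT

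Over the whole coding sequence, 1029 of 1128 bases were identical (91.2%), and the longest stretch shared by both was 59 bases. Reads that fit more than 1 place were not counted by the counting program's default, so reads shared with a copy would be lost from the count and not moved between genes. The table also lists 58 pseudogenes named after the 10 genes, of which 46 had any count. Summed, the pseudogenes held 0.0253% to 0.116% of the summed counts of their parent genes in a library. That percentage was 0.0418 to 0.0469 in Ctrl300g (mean 0.0450) and 0.0869 to 0.109 in wait1min (mean 0.0996). The parents held a mean of 2.28% of all counts in Ctrl300g and 1.33% in wait1min. What moved the percentage was not tested.

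Promoters of ACTG1 and FLNA are shown because, of the 9 genes with an entry in the RefSeq promoter set (GRCh38.p14), all but ACTB, these 2 held a CArG box in the window from 250 bases before to 50 bases after the start. The box reads as itself on the other strand, so 1 search covers both. It was found in 1.29% of all 35116 promoters of that length. The 250 bases before the start follow, 5′ to 3′, with the CArG box in capitals, from chr17:81512800-81513049 (minus strand) for ACTG1 and chrX:154374635-154374884 (minus strand) for FLNA.
ACTG1: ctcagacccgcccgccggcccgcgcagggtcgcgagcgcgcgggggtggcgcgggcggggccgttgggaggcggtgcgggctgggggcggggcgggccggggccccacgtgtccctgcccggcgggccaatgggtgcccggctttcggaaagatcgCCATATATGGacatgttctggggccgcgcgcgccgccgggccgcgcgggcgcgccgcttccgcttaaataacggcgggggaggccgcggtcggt
FLNA: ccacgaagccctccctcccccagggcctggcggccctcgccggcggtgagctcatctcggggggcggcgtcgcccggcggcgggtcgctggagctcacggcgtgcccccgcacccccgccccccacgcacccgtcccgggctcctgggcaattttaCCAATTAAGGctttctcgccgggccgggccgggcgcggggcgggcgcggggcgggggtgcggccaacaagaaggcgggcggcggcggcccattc

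In both, the box began 94 bases before the start. The gene of the factor itself, SRF, is shown beside them, since the last 60 bases before its start (chr6:43171209-43171268, plus strand) held 2 boxes.
SRF: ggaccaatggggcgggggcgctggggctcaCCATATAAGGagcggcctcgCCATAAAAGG

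Among the 92 other actin-system genes described further on that had an entry, 9 held a box (ACTA1, ACTC1, ACTG2, ACTN1, CNN2, MYLK, ROCK2, SRF and TPM4). A match of letters is a description and does not show that SRF bound there.

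On GRCh38, as the count table gives it, the actins lie on chromosome 7 from 5526409 to 5563902 (ACTB, ENSG00000075624) and on chromosome 17 from 81509413 to 81523847 (ACTG1, ENSG00000184009). The genes for monomer binding and filament turnover lie on chromosome 17 from 4945652 to 4949061 (PFN1), 11 from 65823022 to 65862026 (CFL1), 2 from 84905656 to 84906671 (TMSB10) and 16 from 30182827 to 30189076 (CORO1A). The myosin genes lie on chromosome 22 from 36281280 to 36387967 (MYH9) and 12 from 56158346 to 56163496 (MYL6), and the linker genes on chromosome X from 154348524 to 154374634 (FLNA) and 9 from 35696948 to 35732195 (TLN1). All values below are sums over the exons of a gene.

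Every gene of the 10 was counted deeply. Total counts ran from 22634465 to 41893490 in the 59 libraries used at 9 g and from 24417717 to 41220541 in the 20 of the 300 g and heat experiment, and the lowest count of any of the 10 genes in any of them was 3103, for MYL6. Levels are given as counts in every 1e6 counts of a library (CPM), scaled with edgeR's TMM factors over all libraries of an experiment, while each fold change was scaled over the 2 groups it compares. All 7 T cell markers were counted in all 79 libraries, with CD3E between 361 and 667 CPM, while LYZ, CSF1R, EPCAM, KRT8, KRT18, HBB, HBA1, MS4A1 and CD14 stayed at or under 0.669 CPM. The 10 genes were richer in GC (51.3% to 63.0% of the longest transcript) than the median tested gene (49.3%). The B cell marker CD79A was counted in every library, at 28.0 to 72.2 CPM. One hypg15 library, number 75, had 0 counts of ACTB, FLNA and TLN1 and was left out.

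Actin itself dominated the set in resting cells. Per kilobase of annotated exon, ACTB reached 2605 ± 149.9 CPM (SD, n = 6) in Ctrl, PFN1 1158 ± 69.1, ACTG1 1109 ± 76.3 and TMSB10 699 ± 28.2. The remaining 6 genes lay lower on this scale, FLNA at 238 ± 15.3, CFL1 at 207 ± 11.6, CORO1A at 204 ± 14.6, MYH9 at 169 ± 9.28, TLN1 at 87.9 ± 5.23 and MYL6 at 60.7 ± 6.05 CPM per kilobase (SD, n = 6 each). The ranges of PFN1 and ACTG1 overlapped in Ctrl, as did those of FLNA and CFL1 and of CFL1 and CORO1A, and the other neighbours in this order did not overlap. The length is that of all annotated exons of a gene together (4424 bases for MYL6 and 461 for TMSB10), so a gene with long, rarely used exons is set too low. In Ctrl300g the first 6 places were the same, with ACTB at 2576 ± 65.9 and PFN1 at 1219 ± 43.5 CPM per kilobase (SD, n = 4), and MYH9 stood at 197 ± 5.23 next to CORO1A at 196 ± 4.03, with overlapping ranges. Together the 10 genes made up 2.41 to 2.65% of all counts in Ctrl and 2.23 to 2.30% in Ctrl300g. In 5 of the 15 groups a single library was the lowest of its group for all 10 genes at once, and in 2 groups a single library was the highest for all 10, so the genes also varied together between libraries of 1 group.

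**Figure D1:**
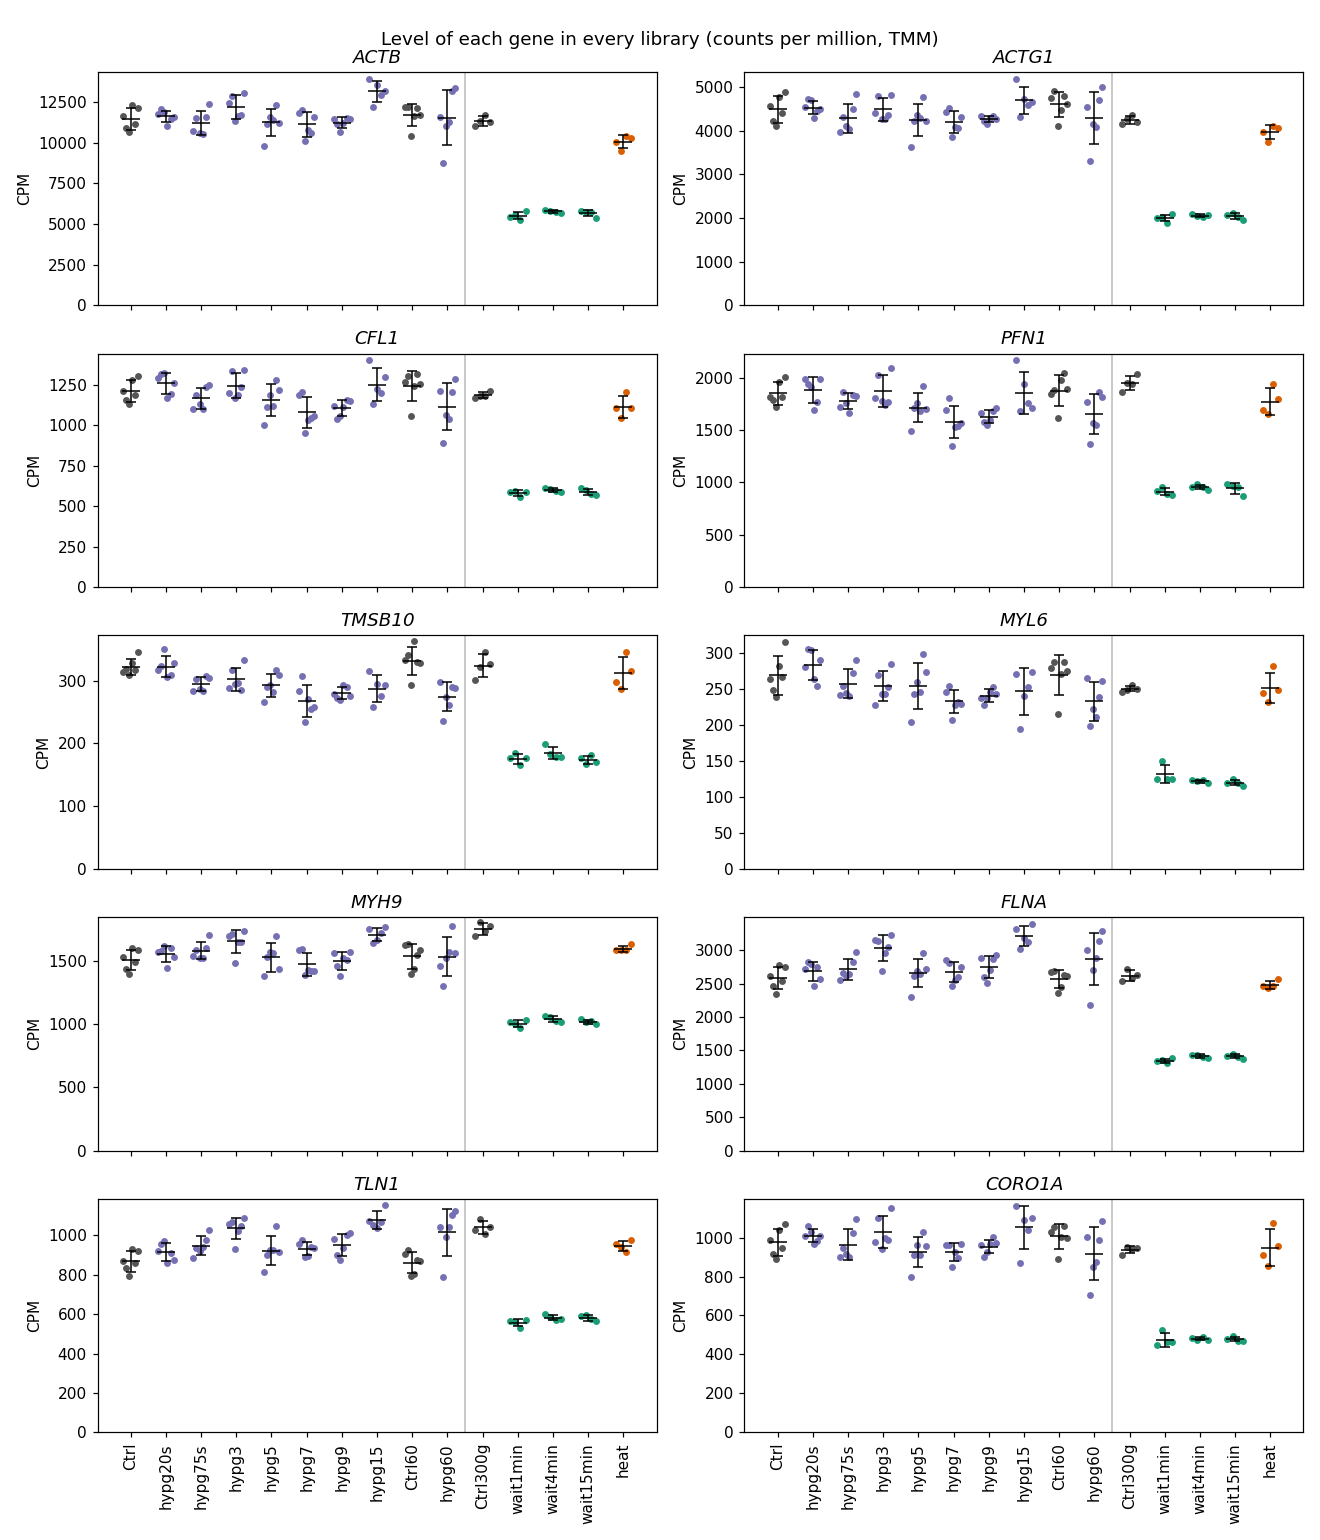
Level of each gene in every library, in CPM on a linear axis from 0. Dots are libraries, bars the mean ± 1 SD of a group, the grey line divides the 9 g experiment from the 300 g and heat experiment, and in every panel the 12 libraries spun at 300 g lie below all other libraries.

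Between the 2 controls at 1 g none of the 10 genes was called. ACTB lay at 10682, 11400.1 and 12311 CPM (lowest, median, highest of 6) after 15 min and at 10448, 11928 and 12225 CPM after 60 min, and the ranges overlapped. The log2 fold changes of the 10 genes ran from -0.02 to 0.04, and edgeR called none at an adjusted p under 0.05, against a background of 0.0124% of all genes tested (2 of 16109, and 578 at an unadjusted p under 0.05). DESeq2 called none of the 10 either.

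Spinning at 300 g was followed by a fall of all 10 genes. After 1 min of waiting, the actins ACTB and ACTG1, the monomer binder PFN1 and the severing factor CFL1 had dropped most, MYH9 least, and the fitted fold changes put each gene at 46.4% to 56.8% of Ctrl300g. All 10 passed the test downwards at each of the 3 waiting times, against a background of 40.1% of all genes tested in wait1min, 40.6% in wait4min and 40.5% in wait15min. Slightly more genes rose than fell (41.4%, 41.7% and 41.8%), and none of the 10 was among them. The median log2 fold change of the 10 was -0.98, -0.97 and -0.99, beside 0.01 over all genes at each time. In bulk RNA, less RNA of a gene in every cell and fewer cells that express it cannot be told apart.

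Of the actins, ACTB stood at 11019.6, 11305, 11331 and 11726 CPM in the 4 Ctrl300g libraries. After the spin it read 5245, 5461, 5555 and 5792 CPM in wait1min, 5684, 5737, 5810.3 and 5865 in wait4min and 5368, 5756, 5772 and 5777 in wait15min. All 12 spun libraries were thus far below every control library, and the 3 waiting times overlapped each other. The log2 fold change of ACTB was -1.05 ± 0.04 (SE) in wait1min, -0.98 ± 0.02 (SE) in wait4min and -1.004 ± 0.03 (SE) in wait15min (adjusted p = 1.9e-13, 2.9e-20 and 1.2e-15). ACTG1, the second cytoplasmic actin, stood at 4144, 4198, 4257 and 4366 CPM in Ctrl300g and at 1897, 1993, 2027 and 2086 in wait1min, again without overlap. Its log2 fold change was -1.09 ± 0.04 (SE), and -1.05 and -1.06 at the later times.

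The genes that handle monomers and turn filaments over followed. PFN1, which charges monomers for growth of filaments, went from 1867, 1944, 1945 and 2037 CPM in Ctrl300g to 879, 888, 919.8 and 951 in wait1min (log2 fold change -1.11 ± 0.04 (SE)). TMSB10, a thymosin that sequesters monomers, read 301, 321, 327 and 345 CPM in Ctrl300g, 166, 176, 176 and 184 in wait1min and 168, 169.9, 177 and 182 in wait15min. Its fall was among the smaller ones, with log2 fold changes of -0.89 ± 0.05 (SE), -0.81 ± 0.04 (SE) and -0.90 ± 0.04 (SE). CFL1, which severs filaments, ranged from 1169 to 1212 CPM in Ctrl300g and from 558 to 594 in wait1min, with a log2 fold change of -1.04 ± 0.04 (SE). CORO1A, the coronin of blood cells, ranged from 911 to 954 CPM in the controls and from 448 to 525 in wait1min (-0.99 ± 0.05 (SE)). For each of these 4 genes the spun and unspun libraries did not overlap at any waiting time.

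Motor and linker genes fell as well. MYH9, the heavy chain of non-muscle myosin II, stood at 1702, 1739, 1779.6 and 1808 CPM in Ctrl300g and at 969.7, 999, 1020.1 and 1031 in wait1min. Its log2 fold changes, -0.81 ± 0.04 (SE), -0.75 ± 0.03 (SE) and -0.79 ± 0.03 (SE), were the smallest of the 10 at each time. MYL6, the essential light chain of the same myosin, read 246, 249, 249.8 and 255 CPM in Ctrl300g, 124, 125, 125 and 149.8 in wait1min and 115, 119, 119 and 124 in wait15min (-0.94 ± 0.05 (SE) and -1.07 ± 0.03 (SE)). One wait1min library of MYL6 was apart from the other 3, and was still below every control library. FLNA, the crosslinker, went from 2542, 2581, 2636 and 2722 CPM to 1313, 1339, 1354 and 1383 in wait1min, a log2 fold change of -0.97 ± 0.04 (SE). TLN1, the talin of integrin contacts, ranged from 1009 to 1086 CPM in Ctrl300g and from 532 to 568 in wait1min (-0.91 ± 0.04 (SE)). Differences in size between the 10 genes were not tested.

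**Figure D2:**
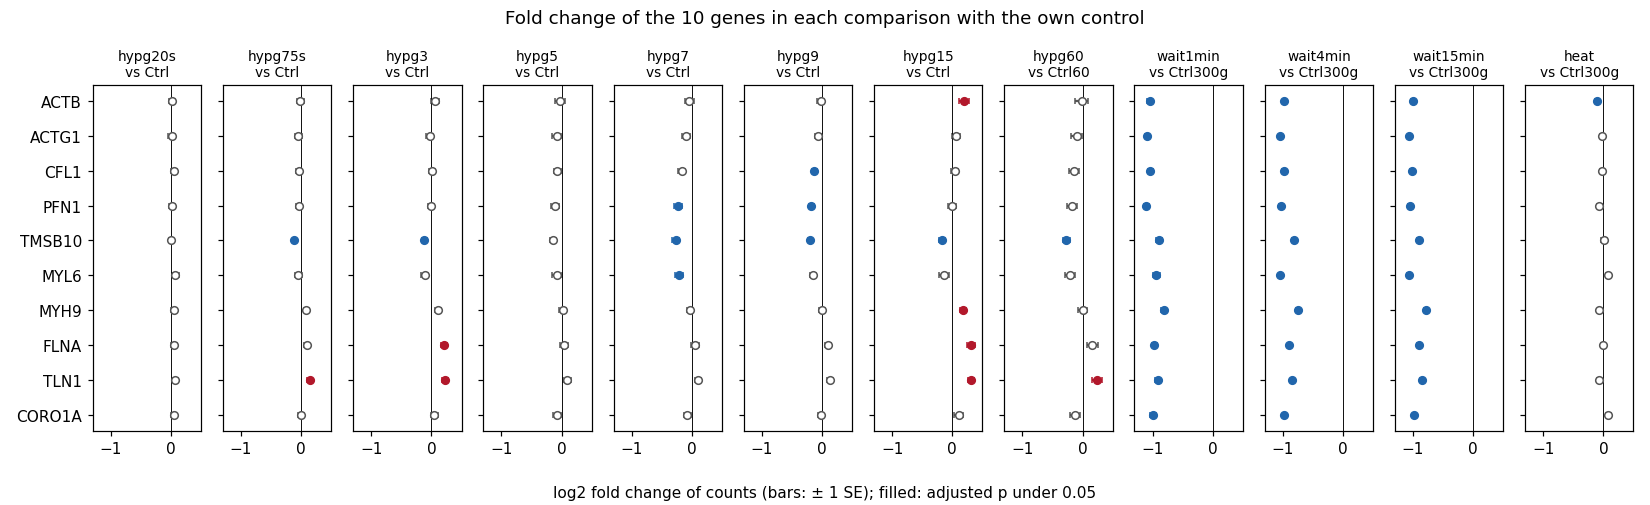
Log2 fold change of each gene against its own control in the 12 comparisons, with bars of ± 1 SE and filled dots for adjusted p under 0.05 (red up, blue down). All 10 genes are filled on the left side in the 3 groups spun at 300 g, and scattered near 0 in the other 9, where a GC-content correction turns several directions.

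The size of the fall depended on how libraries were scaled, while its direction did not. Across all genes, the fold change at wait1min went with GC content (Spearman's rho -0.69 over 16918 genes, which are not independent replicates). All 10 genes lie above the median tested gene in GC content, with MYL6, TMSB10 and ACTB under the upper quartile of 56.7%. With a correction for GC content, all 10 were still called down at each time, with a background of 28.2%, 29.3% and 29.2% of genes downregulated, but the median shrank to -0.37, -0.34 and -0.39. Under that correction MYL6 fell most (-0.53, -0.65 and -0.68) and MYH9 least (-0.13, -0.11 and -0.14). Scaling to total counts moved the median of all genes up by 0.25 to 0.27 on the log2 scale, and the 10 genes then had medians of -0.74, -0.72 and -0.73, all 10 called down. On that scale the 10 genes made up 1.29 to 1.37% of counts in wait1min, 1.39 to 1.42% in wait4min and 1.35 to 1.40% in wait15min, against 2.23 to 2.30% in Ctrl300g. Other RNA classes moved in the same libraries. The share of lincRNA genes was 0.360 to 0.384% of counts in Ctrl300g and 1.10 to 1.19% in wait1min, and that of the class misc_RNA 3.65 to 3.99% and 1.75 to 1.85%. The summed level of the 7 T cell markers was 3065 to 3174 CPM in Ctrl300g and 1839.7 to 1954 CPM in wait1min. The part of these shifts in the fall of the 10 genes was not tested.

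**Figure D3:**
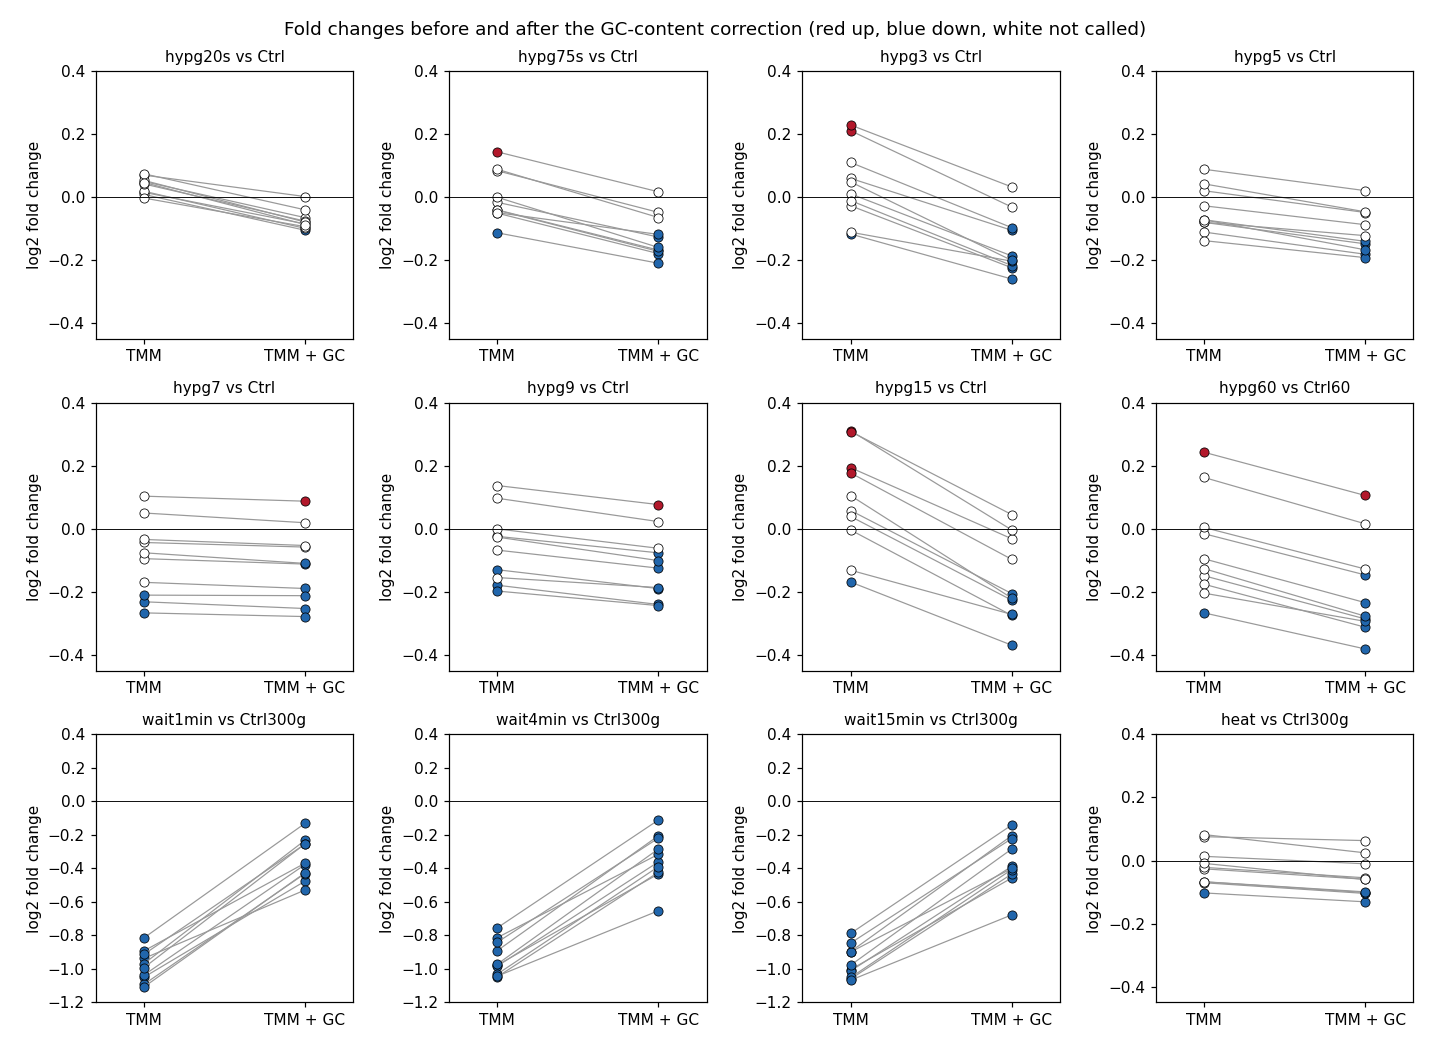
Log2 fold changes of the 10 genes with TMM scaling (left dots) and after the added GC-content correction (right dots), 1 line per gene and 1 panel per comparison, with different ranges of the vertical axis for the 3 groups spun at 300 g. The falls at 300 g shrink and remain called, while at 9 g FLNA and MYH9 are no longer called up and ACTG1 is called down in all 8 comparisons.

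None of the 10 genes was called between the longest and the shortest wait. From wait1min to wait15min the log2 fold changes of the 10 ran from -0.13 for MYL6 to 0.07, and edgeR called none at an adjusted p under 0.05, against a background of 0.149% (26 of 17446 genes, and 2192 at an unadjusted p under 0.05). DESeq2 called none of the 10. MYL6 was the only gene whose ranges did not overlap on the scale of the levels, with 124 to 149.8 CPM in wait1min and 115 to 124 in wait15min (adjusted p = 0.31), and they did overlap when scaled over these 2 groups alone.

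After heat 1 of the 10 genes was called with TMM scaling, and its change was small. ACTB, the gene called, read 9519, 10067, 10309 and 10419 CPM in the 4 heated libraries, all below the lowest Ctrl300g library at 11019.6 CPM. Its log2 fold change was -0.10 ± 0.03 (SE) with an adjusted p of 0.025, beside 10.2% of all genes downregulated and 10.6% upregulated. The call was lost without Ctrl300g library 51 or without heat library 66, and without heat library 67 PFN1 was called too. The values of ACTG1 (3749 to 4101 CPM), MYH9 (1585 to 1635 CPM) and TLN1 (917 to 978 CPM) also lay below all control libraries, with log2 fold changes of -0.03, -0.07 and -0.07 that missed the threshold (adjusted p = 0.58, 0.13 and 0.17). With the GC correction 4 genes were called down, ACTB (-0.13), PFN1 (-0.10), MYH9 (-0.10) and TLN1 (-0.10), with edgeR's adjusted p of 0.0025, 0.025, 0.0085 and 0.021, beside 13.1% of all genes down and 11.8% up. Scaled over heat and Ctrl300g alone, these 3 genes did overlap with the control, since the log2 ratio of the levels of ACTB, scaled over all 20 libraries, was -0.07 from its fitted log2 fold change, and with all 5 groups in 1 model 7 of the 10 genes were called, all down, where 21.6% of all genes were downregulated and 7.85% upregulated. The other 6 genes overlapped with the control, with log2 fold changes from -0.07 for PFN1 to 0.08 for CORO1A. Set directly against wait1min, all 10 genes were higher after heat (median log2 fold change 0.89, range 0.65 to 0.98), with no overlap and a background of 39.1% upregulated. Corrected for GC content, 8 were called up, with a background of 23.0%, and MYH9 (-0.05) and TLN1 (0.08) were not.

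At 9 g the changes were small, and with TMM scaling they went in both directions. TMSB10 fell at 6 of the 8 exposure times, TLN1 rose at 4 and FLNA at 2, with log2 fold changes within -0.27 and 0.31 for all 10 genes. ACTG1 and CORO1A passed the test at none of the 8 times with this scaling. The GC correction ended the upward calls of FLNA, MYH9 and ACTB. With it ACTB was called down at 4 of 8 times, MYH9 at 1 and TMSB10 at 7. A fit with 3 surrogate variables, hidden factors estimated from all genes, left a single call at 9 g, TMSB10 down at 7 min, where 2.29% of all genes were called down.

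None of the 10 genes was called at 20 s by edgeR or DESeq2, where 6.66% of all genes tested were upregulated and 8.58% downregulated. At 75 s TLN1 rose and TMSB10 fell, beside 16.8% of genes up and 14.4% down. At 3 min FLNA and TLN1 rose and TMSB10 fell (background 16.9% up, 24.4% down). At 5 min again none was called by edgeR, and DESeq2 called 1 down (3.25% of all genes), where by edgeR 4.33% of genes rose and 1.69% fell. PFN1, TMSB10 and MYL6 fell at 7 min (background 6.19% down, 6.64% up), and CFL1, PFN1 and TMSB10 at 9 min (8.34% down, 11.3% up). After 15 min ACTB, MYH9, FLNA and TLN1 rose and TMSB10 fell, in the comparison with the highest background of the 8 (25.4% up, 27.9% down). After 60 min, against Ctrl60 with its HEPES name, TLN1 rose and TMSB10 fell (17.1% up, 13.0% down). With TMM scaling and read against these percentages, 4 of 10 genes up at 15 min, or 1 or 2 of 10 in a direction at 75 s, 3 min and 60 min, are near the background, and 3 of 10 down at 7 and at 9 min lie above it. With the GC correction the falls lie above the background at all times but 20 s, where 1 of 10 was called down (10.2%). There were 7 of 10 down at 75 s (16.4%), 8 at 3 min (26.9%), 5 at 5 min (10.5%), 6 at 7 min (13.0%), 7 at 9 min (16.0%), 6 at 15 min (29.8%) and 7 at 60 min (24.1%). The one gene up with the GC correction was TLN1, at 7, 9 and 60 min. The background covers all genes down to the minimum count of 10, while the 10 genes held at least 3103 counts each and varied together between libraries. Their calls are thus not independent, and how far depth raised them above the background was not tested. At 20 s and 5 min, 5095 and 3676 of all genes had an unadjusted p under 0.05. The makeup of the libraries moved at 9 g too. Mitochondrial genes took 1.33 to 1.60% of counts in Ctrl and 1.49 to 1.73% in hypg20s, and every library from 75 s to 15 min lay above the highest Ctrl library, with 1.82 to 3.32% in hypg15. In hypg60 this share was 2.12 to 2.67%, against 1.16 to 1.38% in Ctrl60. The class misc_RNA took 6.30 to 8.79% of counts in hypg15 and 4.95 to 5.91% in Ctrl, without overlap. The part of these shifts in the calls at 9 g was not tested.

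With TMM scaling TMSB10 had the most calls of the 10 genes at 9 g, while with the GC correction ACTG1 was called at 8 times and TMSB10, CFL1, PFN1 and CORO1A at 7 each. It lay at 309, 318 and 345 CPM (lowest, median, highest of 6) in Ctrl, 283, 294 and 307 in hypg75s, 233, 264 and 307 in hypg7 and 269, 277 and 293 in hypg9. All libraries of these 3 exposure times were below the lowest Ctrl library, at 75 s on this scale only. The log2 fold change was -0.11 ± 0.03 (SE) at 75 s, -0.27 ± 0.06 (SE) at 7 min and -0.20 ± 0.03 (SE) at 9 min (adjusted p = 0.0092, 0.008 and 0.0012). The libraries of hypg3 (286, 295 and 333 CPM), hypg15 (258, 275, 293, 295 and 316 CPM) and hypg60 (235, 281 and 298 CPM) overlapped in part with their controls. There the log2 fold changes were -0.12, -0.17 and -0.27, all called. Under the GC correction TMSB10 was called down at 7 of 8 times, with log2 fold changes down to -0.38 at 60 min, and with all groups in 1 model at 4.

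PFN1, CFL1 and MYL6 were called at 1 or 2 times each. The separate list of 16 monomer binding and severing genes was split, with 3 down and 3 up at 7 min and 4 down and 3 up at 9 min. PFN1 lay at 1719, 1816 and 2009 CPM in Ctrl, 1346, 1549.6 and 1804 in hypg7 and 1551, 1630.4 and 1713 in hypg9, and all hypg9 libraries were below all Ctrl libraries. Its log2 fold change was -0.23 ± 0.07 (SE) at 7 min and -0.18 ± 0.05 (SE) at 9 min (adjusted p = 0.036 and 0.012). CFL1 was called at 9 min (1038, 1114 and 1157 CPM against 1133, 1199 and 1305 in Ctrl, log2 fold change -0.13 ± 0.04 (SE), adjusted p = 0.048), with overlapping ranges. MYL6 was called at 7 min (207, 231 and 253 CPM against 238, 265 and 314 in Ctrl, -0.21 ± 0.06 (SE), adjusted p = 0.04), again with overlap. Without hypg7 library 33, the lowest of its group for all 10 genes, 1 gene was called at 7 min. Without Ctrl library 3, the lowest of Ctrl, 4 genes were called at 9 min and 1 at 75 s. The shares of all genes called in these fits are not given here. After GC correction, PFN1 and CFL1 were called down at 7 of the 8 times and MYL6 at 6. Setting hypg9 directly against hypg75s, PFN1 was the one gene called (-0.14 ± 0.04 (SE), adjusted p = 0.047, background 3.24% down and 1.76% up), and that call was lost with the GC correction.

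TLN1 and FLNA moved the other way with TMM scaling. The separate list of 12 membrane and adhesion linkers had 4 up and 3 down at 15 min (25.4% and 27.9% of all genes). At 60 min it had 0 up and 1 down (17.1% and 13.0%), and with the GC correction 0 up and 8 down at 15 min (13.2% and 29.8%). The 13 crosslinkers and bundlers tested had 4 up and 3 down at 15 min, and 0 and 6 with the GC correction. TLN1 lay at 795, 864 and 931 CPM in Ctrl, 887, 939.5 and 1028 in hypg75s, 932, 1053 and 1089 in hypg3 and 1040.0, 1052, 1069, 1075 and 1155 in the 5 hypg15 libraries. All libraries of hypg15 were above the highest Ctrl library, those of hypg3 as well on this scale but not when scaled over hypg3 and Ctrl alone, and those of hypg75s overlapped. The log2 fold change was 0.14 ± 0.04 (SE) at 75 s, 0.23 ± 0.05 (SE) at 3 min, 0.31 ± 0.05 (SE) at 15 min and, against Ctrl60, 0.24 ± 0.08 (SE) at 60 min (adjusted p = 0.017, 0.0011, 2.8e-04 and 0.028). Corrected for GC, TLN1 was called up at 7, 9 and 60 min, at 0.09, 0.08 and 0.11, and not at 75 s, 3 min or 15 min.

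FLNA lay at 2339.7, 2577 and 2775 CPM in Ctrl, 2696, 3095 and 3234 in hypg3 and 3026, 3126, 3181, 3325 and 3395 in hypg15. The hypg15 libraries were all above Ctrl, and those of hypg3 overlapped with it. The log2 fold changes were 0.21 ± 0.05 (SE) and 0.31 ± 0.06 (SE) (adjusted p = 0.0067 and 8.3e-04), and -0.03 and -0.0041 with the GC correction, not called. MYH9 was called at 15 min, where its 5 libraries (1645, 1664, 1726, 1752 and 1768 CPM) were above the Ctrl range of 1399 to 1606 CPM (0.18 ± 0.05 (SE), adjusted p = 0.013; -0.10 with the GC correction, not called). Since hypg3 and hypg15 differ from all other groups in library numbers, these rises and the number range cannot be told apart. Between hypg15 and hypg3 themselves none of the 10 was called by edgeR or DESeq2 (log2 fold changes -0.08 to 0.11, background 2.54%, with 2688 of 15915 genes at an unadjusted p under 0.05).

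With TMM scaling, 1 of the 2 actins was called at 9 g, at a single time. ACTB was called at 15 min, at 12224, 12918, 13213, 13544 and 13928 CPM in the 5 libraries against 10682, 11400.1 and 12311 in Ctrl, with the lowest of the 5 inside the Ctrl range. Its log2 fold change of 0.19 ± 0.08 (SE) had an adjusted p of 0.047, lost the call without Ctrl library 3 or without any of the hypg15 libraries 76, 78, 79 and 80, and was -0.03 with the GC correction, which called ACTB down at 75 s (-0.13), 3 min (-0.11), 9 min (-0.08) and 60 min (-0.15). ACTG1 averaged 4209 CPM in hypg7 and 4692 CPM in hypg15, against 4493 ± 309 CPM (SD, n = 6) in Ctrl, and was not called. The GC correction called it down at all 8 times, with log2 fold changes between -0.11 at 20 s and -0.23 at 60 min. CORO1A averaged 918 CPM in hypg60 and 1053 CPM in hypg15 and was likewise not called with TMM scaling in the fits of all libraries used. The GC correction called CORO1A down at 7 of 8 times. With TMM scaling, 1 of the 6 fits at 15 min that left out a library called it up. The direction itself turned with the correction in several comparisons, called or not, for example from 0.04 to -0.23 for CFL1 at 15 min. Across all genes, fold changes at 9 g went with GC content, with Spearman's rho from 0.10 at 7 min to 0.67 at 3 min. With the correction, 8.58%, 12.2% and 17.3% of all genes were upregulated at 7, 9 and 60 min.

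The fall after 5 min at 300 g was larger than the change after 5 min at 9 g for every gene. The difference of the 2 effects, (wait1min minus Ctrl300g) minus (hypg5 minus Ctrl) on the log2 scale, was tested in 1 model and was negative and called for all 10 genes, from -1.02 ± 0.10 (SE) for ACTB to -0.75 ± 0.08 (SE) for TMSB10, against a background of 37.9% of all genes. The median over the 10 was -0.98, and -0.08 over all genes tested. With the GC correction the difference was called for 8 genes, with a background of 21.8%, a median of -0.26 and MYH9 (-0.10) and CORO1A (-0.10) no longer called. The 2 arms also differ in centrifuge, in the wait of 1 min and in the range of library numbers, and acceleration and these cannot be told apart.

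The ratio of ACTB to ACTG1 counts, in which library scaling but not GC content drops out, moved between groups as well. It was 2.56 ± 0.047 (SD, n = 6) in Ctrl and 2.54 ± 0.038 in Ctrl60, and 2.71 ± 0.064 in hypg3 and 2.81 ± 0.071 in hypg15 (n = 6 and 5). The libraries of hypg3 and hypg15, from 2.65 upwards, all lay above the highest Ctrl library at 2.60, and these 2 groups differ from Ctrl in library numbers too. Within the number range of Ctrl, the 6 hypg7 libraries (2.605 to 2.68) also lay above it, while the lowest libraries of hypg5 (2.58), hypg9 (2.57) and hypg75s (2.56) lay inside the Ctrl range and that of hypg60 (2.56) inside the Ctrl60 range. The means of these 4 groups were 2.65, 2.63, 2.62 and 2.69, and that of hypg20s was 2.57. In the second experiment the ratio was 2.66 to 2.69 in Ctrl300g, 2.74 to 2.78 in wait1min, 2.76 to 2.84 in wait4min, 2.73 to 2.86 in wait15min and 2.53 to 2.54 in heat. All 12 spun libraries were thus above and all 4 heated libraries below the 4 controls. ACTB and ACTG1 differ in GC content (55.1% and 57.8%), and the ratio was taken without the GC correction. With it the log2 fold change of ACTB was below that of ACTG1 in wait1min (-0.48 and -0.43), wait4min (-0.433 and -0.423) and wait15min (-0.46 and -0.43). The direction after the spin thus turned, while that of heat (-0.13 and -0.06) and of hypg15 (-0.03 and -0.21) did not. These ratios are a description, and no test was run on them.

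**Figure D4:**
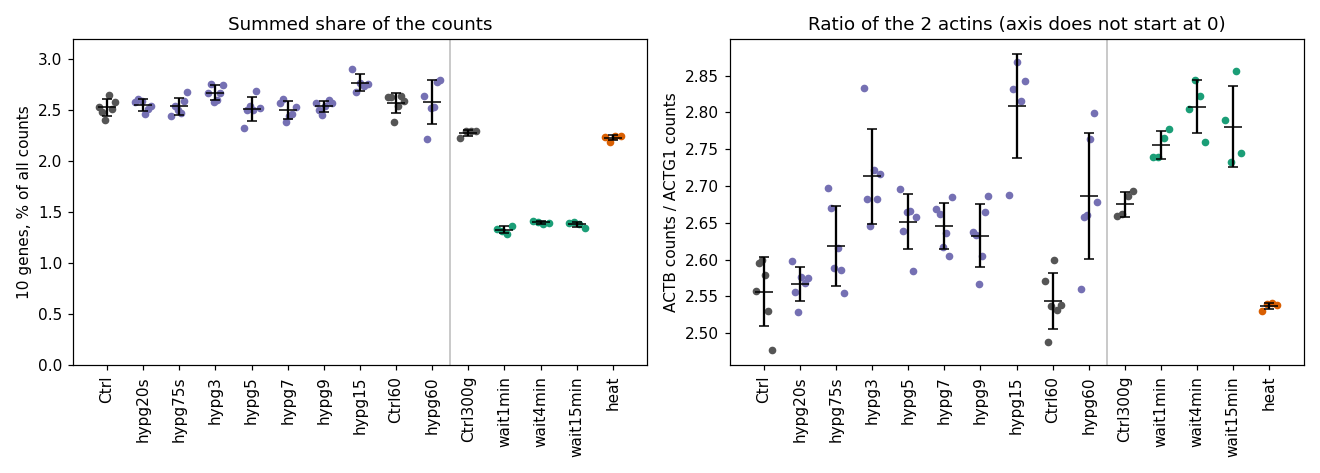
Summed share of the 10 genes in all counts of a library, in percent on an axis from 0 (left), and ratio of ACTB to ACTG1 counts on a shortened axis (right), with 1 dot per library and bars of the mean ± 1 SD. The share is 2.21% or more in every library at 9 g and 1.42% or less in every library spun at 300 g, and the heated libraries have ratios below those of Ctrl300g.

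The wider actin system, 101 other genes in 10 lists by role of which 96 were tested, did not move as 1 block at 300 g. In wait1min 61 of the 96 fell and 30 rose, with a median log2 fold change of -0.51, beside 40.1% down, 41.4% up and a median of 0.01 over all genes. Crosslinkers and bundlers fell in 12 of 13 with none rising (with the GC correction 9 fell and 1 rose), and membrane and adhesion linkers in 10 of 12. Myosin II and its regulators went the other way, with 7 of 10 up and 3 down (6 and 2 with the GC correction). Of the Arp2/3 complex, which starts branched filaments, 7 of 9 fell and 2 rose, and of the genes that switch it on 8 of 13 fell and 5 rose. Formins (5 down, 4 up of 9), monomer binding and severing factors (9 down, 5 up of 16) and capping proteins and tropomyosins (3 down, 4 up of 9) were split. With the GC correction, under which 28.2% of all genes were down and 44.0% up, formins turned to 2 down and 6 up, with a median log2 fold change of 0.17 in place of -0.46, while monomer binding and severing factors had 9 down and 4 up, capping proteins and tropomyosins 3 and 4, the Arp2/3 complex 7 and 1, its activators 8 and 5, and membrane and adhesion linkers 8 and 3. In wait4min 64 fell and 30 rose, and in wait15min 64 and 29. With the GC correction the numbers in wait1min were 50 down and 32 up, with a median log2 fold change of -0.12. Total counts gave 56 down and 34 up in wait1min, with a median of -0.26, where 30.4% of all genes were down and 49.7% up.

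Named by how often they were called over the 12 comparisons, single genes moved in both directions. EZR, which ties actin to the membrane, lay between 392 and 413 CPM in Ctrl300g and between 211 and 229.6 CPM in wait1min (log2 fold change -0.85 ± 0.04 (SE)). The spectrin gene SPTAN1 fell as well (-0.62). The formin DIAPH2 rose and lay between 12.2 and 16.2 CPM in Ctrl300g and between 44.7 and 47.6 CPM in wait1min (1.75 ± 0.07 (SE)). ACTR3 of the Arp2/3 complex rose and lay between 174 and 198 CPM in Ctrl300g and between 273 and 307 CPM in wait1min (0.62 ± 0.05 (SE)), while its partner ARPC5 fell (-0.26). Once corrected for GC, ACTR3 was called down instead (-0.85), as was ABI1 of the WAVE complex (0.83 without and -0.36 with it), and DIAPH2 stayed up (0.72). With TMM scaling the 2 actin-sensing coactivators of SRF parted. MRTFA lay between 76.5 and 82.6 CPM in Ctrl300g and between 52.7 and 59.0 CPM in wait1min (-0.54 ± 0.04 (SE)). MRTFB lay between 33.3 and 41.0 CPM in Ctrl300g and between 82.8 and 87.2 CPM in wait1min (1.15 ± 0.05 (SE)). The GC correction turned MRTFA to 0.19, called up, and under it 2 of the 3 genes SRF, MRTFA and MRTFB were up and 1 was down. Further genes of this rule were HCLS1 (-0.66), FMNL3 (-0.46), GMFG (-0.65), PXN (-0.66), TPM3 (-0.66), CAPZA2 (0.94), SSH2 (0.21), MYL12A (0.15) and MYL12B (0.26), all called in wait1min. Under the GC correction FMNL3, PXN, CAPZA2 and MYL12A of these were not called.

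At 9 g more of these genes fell than rose at each exposure time, also with the GC correction and with total counts. Of the 96, 12 fell and 3 rose at 20 s (8.58% and 6.66% of all genes tested), 25 and 11 at 75 s (14.4% and 16.8%), 38 and 15 at 3 min (24.4% and 16.9%) and 4 and 1 at 5 min (1.69% and 4.33%). Falls and rises numbered 14 and 4 at 7 min (6.19% and 6.64% of all genes), 19 and 7 at 9 min (8.34% and 11.3%), 41 and 18 at 15 min (27.9% and 25.4%) and 22 and 9 at 60 min (13.0% and 17.1%). With the GC correction 22 fell and 2 rose at 20 s (10.2% down and 4.02% up over all genes), 32 and 5 at 75 s (16.4% and 9.28%), 52 and 3 at 3 min (26.9% and 6.16%) and 24 and 2 at 5 min (10.5% and 5.01%). Under it the numbers were 27 and 7 at 7 min (13.0% and 8.58%), 34 and 9 at 9 min (16.0% and 12.2%), 55 and 1 at 15 min (29.8% and 13.2%) and 46 and 8 at 60 min (24.1% and 17.3%). GMFG, which acts on branched filaments, was called down at 7 of the 8 times, as in hypg60 (-0.40 ± 0.06 (SE), and -0.49 with the GC correction). The regulatory light chain MYL12A of myosin II was called down at all 8 times, between -0.11 at 20 s and -0.34 at 15 min, and with the GC correction at all but 20 s. EZR fell at 6 of them, to -0.38 at 60 min, and SSH2, a phosphatase that activates cofilin, rose at 6, with a log2 fold change of 0.61 ± 0.08 (SE) at 60 min. CAPZA2, a capping protein, had the largest log2 fold change of the named genes at 9 g, -1.15 ± 0.11 (SE) at 15 min (-0.79 with the GC correction). After heat 25 of the 96 fell and 1 rose, at a background of 10.2% down (35 and 2 with the GC correction, at 13.1%), with 6 of 13 nucleation promoting factors down. MRTFB was among those that fell after heat (-0.39 ± 0.07 (SE)). None of the 96 was called between Ctrl60 and Ctrl, which differ in time and in the HEPES name.

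**Figure D5:**
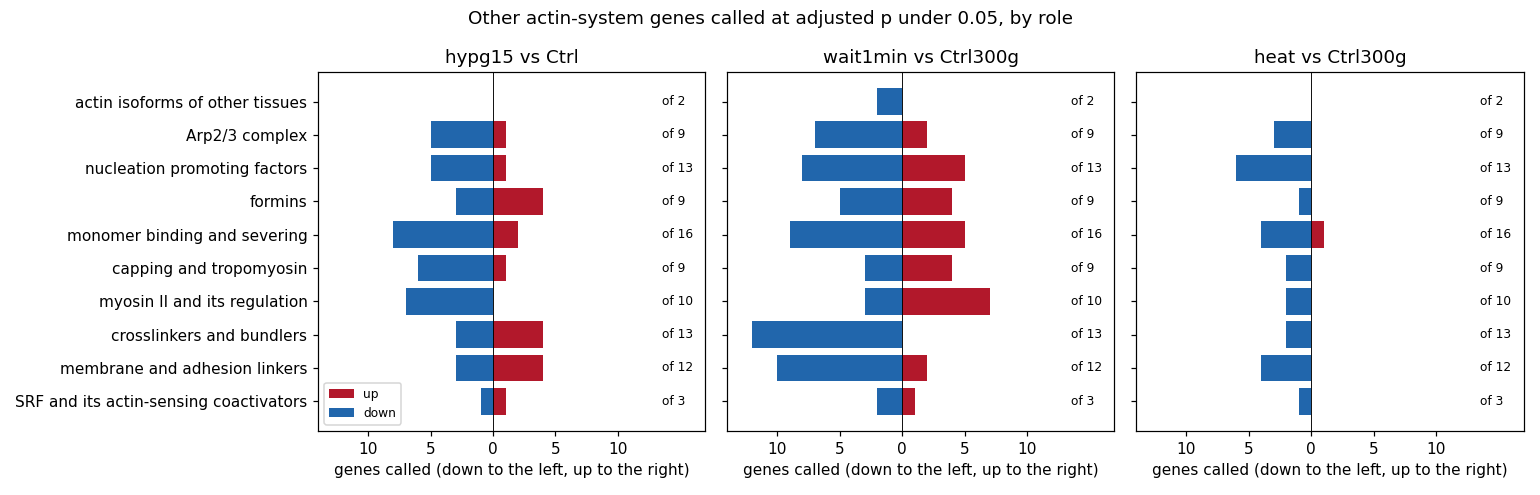
Number of other actin-system genes called at adjusted p under 0.05 in hypg15, wait1min and heat, by role, with falls to the left, rises to the right and the number tested at the right edge, on TMM scaling. Crosslinkers show 12 falls and no rise in wait1min, and myosin II genes 7 falls in hypg15 and 7 rises in wait1min.

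Outside these lists, the genes whose 12 log2 fold changes tracked the median of the 10 most closely were PRXL2B (r = 0.9994), UQCRC1 (r = 0.9994), LRRC59 (r = 0.9994), DGCR6L (r = 0.9993) and PPP2R1A (r = 0.9993), among 8321 genes with at least 10 CPM in both experiments. Their log2 fold changes in wait1min lay between -1.14 and -0.93. The 12 points share controls within each experiment and are spread mainly by the 3 groups spun at 300 g, and 47.0% of the ranked genes had an r above 0.9, so the likeness is a description of these libraries.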

How the data were processed

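The authors deposited 1 table of raw counts of read pairs per gene, made per the file headers with featureCounts 2.0.3 on the reverse strand against Ensembl 104 (GRCh38). By the command in that header, reads mapping to several places were not counted. The labels name Trim Galore 0.6.5, STAR 2.7.3a, featureCounts 2.0.1 and DESeq2 1.28.1. The deposited table also gives a length per gene, the summed length of its annotated exons (another unit, in bases). Columns were matched to groups by sample titles. Column names read "instant" for wait1min, "1min" for wait4min and "Ctrl plus HEPES" for Ctrl60, and whether Ctrl60 alone held HEPES is not given in the sources used here. Of 60663 genes, 18339 had no count.

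Each comparison was fitted on its 2 groups with the quasi-likelihood test of edgeR 4.0.16 (R 4.3.3), with TMM factors, filterByExpr (minimum count 10) and Benjamini-Hochberg adjustment over all genes tested. Called means an adjusted p under 0.05. The difference of the 300 g and 9 g effects was fitted on 4 groups. The SE was derived from the F statistic. Fits were tested on simulated counts. The GC correction added a lowess curve (span 0.3) of log2 counts on the GC content of the longest GENCODE 29 transcript as offset. Other alternatives were RLE factors, total counts, no filter, DESeq2 1.42.0, exon length, all groups in 1 model, 3 surrogate variables (sva 3.50.0, 9 g only), library 75 kept and libraries left out. Leaving out the libraries that were lowest or highest of a 9 g group for all 10 genes was chosen after seeing the data.

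The 10 genes and the role lists were chosen with earlier results of these data known. From each role list, up to 2 genes with the most calls in 12 comparisons and a mean level of 10 CPM or more were named, and 5 genes were named by likeness. Of the named genes and markers, 2 are not reported here.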

Additional observations from a re-analysis of the deposited data

Results flagged for a closer look

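Among the 150 combinations of a gene and a group with 4 to 6 libraries, 8 held a library far from the others by Dixon's test, where chance at 1 in 20 would give 7.5. Of these 8, 4 were library 9 of Ctrl60, at 10448 CPM for ACTB (others 11627 to 12225), 1056 for CFL1 (others 1244 to 1316), 215 for MYL6 (others 270.2 to 287) and 888 for CORO1A (others 1001 to 1061). Library 64 of wait15min stood at 5368 CPM for ACTB, below the 5756 to 5777 of the other 3. Library 54 of wait1min stood at 149.8 CPM for MYL6, above the other 3 at 124 to 125. MYH9 was at 1635 CPM in heat library 68 (others 1585 to 1589) and at 1487 CPM in hypg3 library 71 (others 1655 to 1737).

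The effects of 5 min at 300 g and of 5 min at 9 g differed for all 10 genes in the test of the difference itself. The difference, 300 g minus 9 g on the log2 scale, was -1.02 for ACTB, -1.01 for ACTG1, -0.96 for CFL1, -0.99 for PFN1 and -0.75 for TMSB10. It was -0.85 for MYL6, -0.83 for MYH9, -1.01 for FLNA, -0.997 for TLN1 and -0.92 for CORO1A.

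Library 75 of hypg15 was left out of all fits but the alternative that kept it. With 17205655 counts in all, it had 0 counts of 3 of the 10 genes, ACTB, FLNA and TLN1, and the other 7 lay above the highest Ctrl library in CPM of total counts. They read 6598 for ACTG1 (highest Ctrl library 4642), 1793 for CFL1 (1247), 2769 for PFN1 (1906) and 441 for TMSB10 (326). MYL6 stood at 341 (297), MYH9 at 2436 (1562) and CORO1A at 1542 (1011). Why 3 genes were at 0 in this library was not tested.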

How the results depend on the processing

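The falls of all 10 genes at 300 g were called under every alternative run, at all 3 waiting times, and so was their difference from 9 g except with the GC correction (8 of 10). The results at 9 g and after heat depended on the processing, and the cause was not tested. Of the 180 log2 fold changes, 176 stayed on their side of the threshold, and kept their direction where called in either fit, with RLE factors, 175 with DESeq2, 170 with total counts, 175 without the filter, 170 with the exon length correction, 163 with all groups in 1 model and 126 with the GC correction. With 3 surrogate variables 88 of 110 did. No paired analysis was possible because each library number occurs once and so pairs no samples.

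Corrected for GC content, 1 of the 10 genes was called in hypg20s, 7 in hypg75s, 8 in hypg3, 5 in hypg5, 6 in hypg15 and 4 in heat, all down, 7 in hypg7, 8 in hypg9 and 8 in hypg60, all down but TLN1, and 0 in hypg9 against hypg75s. In hypg15 TMM scaling had called 4 up and 1 down. Log2 fold changes that turned and were called in at least 1 of the 2 fits were ACTG1 in hypg20s (-0.11), in hypg3 ACTB (-0.11), CFL1 (-0.19), MYH9 (-0.10), FLNA (-0.032) and CORO1A (-0.20), in hypg15 ACTB (-0.032), ACTG1 (-0.21), CFL1 (-0.23), MYH9 (-0.10), FLNA (-0.0041) and CORO1A (-0.22), and MYH9 in heat against wait1min (-0.050). With 3 surrogate variables 0 genes were called in hypg75s, hypg3, hypg9, hypg15 and hypg60, 1 in hypg7 (down, as 2.29% of all genes) and 4 in hypg9 against hypg75s (up, as 6.40%), where ACTB (0.083), ACTG1 (0.083) and CORO1A (0.091) turned, as did PFN1 in hypg9 (0.0056). With total counts 4 were called in hypg75s (3 up and 1 down, beside 18.4% and 12.2% of all genes) and 1 in hypg5 (down, 1.65%). On that scale 5 were called in hypg7 (1 up and 4 down, 10.5% and 5.09%) and 5 in hypg9 (2 up and 3 down, 15.4% and 5.54%). In heat it called 2, 1 up and 1 down, where 7.04% of all genes were down and the share up is not given here. With all groups in 1 model 0 were called in hypg75s, 1 in hypg9 (down, 5.77%), 5 in hypg60 (2 up and 3 down, 20.7% and 19.3%), 7 in heat (down, 21.6%) and 0 in hypg9 against hypg75s. DESeq2 called 1 in hypg5 (down, 3.25%). With the exon length correction 1 was called in hypg5 (down, 2.98%) and 4 in heat (2 up and 2 down, 15.1% and 8.38%), where TMSB10 turned (-0.19). Without the filter 3 were called in hypg15 (2 up and 1 down, 9.84% and 13.7%), 2 in heat (down, 5.97%) and 0 in hypg9 against hypg75s, where RLE factors gave 0 as well. With library 75 kept, 2 were called in hypg15 (1 up and 1 down, 17.1% and 15.3%) and ACTB turned (-0.069).

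Leaving out 1 library at a time gave 0 to 2 calls in heat and 4 to 6 in hypg15. Without Ctrl library 3 there was 1 call in hypg75s, and in hypg7 there were 3, against 1 without hypg7 library 33. Without Ctrl60 library 9 or hypg60 library 44, hypg60 had 3 calls. The shares of all genes called in these fits are not given here, so these counts cannot be set against a background. In hypg60, library 44 also stood apart in its shares of misc_RNA (3.69%) and lincRNA (0.505%). With at least 3103 counts per gene, counting error was not compared with the spread between libraries.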
